A study of Arabidopsis thaliana with 47 samples.

Results

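The 10 genes described here build the xylem, the water-conducting tissue of the root. They comprise the regulators VND7 (AT1G71930), MYB46 (AT5G12870) and MYB83 (AT3G08500), the wall genes CESA4 (AT5G44030), CESA7 (AT5G17420), CESA8 (AT4G18780) and COBL4 (AT5G15630), the laccase gene LAC4 (AT2G38080) and the protease genes XCP1 (AT4G35350) and XCP2 (AT1G20850). They were taken by locus code, without regard to their values, from 36823 loci of a count table for Arabidopsis thaliana. RNA was sequenced from root meristematic zones, the dividing region of the root tip, dissected from 6-day-old seedlings after 24 h of treatment, with 50 root sections per library. The 47 libraries fell into 9 groups that crossed 3 genotypes with mock, 0.3 nM or 5 nM RGF1, a secreted peptide hormone of the root meristem. All genotypes carry the plt2 mutation, which affects the meristem transcription factor PLETHORA 2 (PLT2). The first is plt2 alone, the second is plt2/gPLT2-GFP (gPLT2), which adds a genomic PLT2-GFP transgene, and the third is plt2/gPLT2C212S-GFP (gPLT2C212S), whose transgene has cysteine 212 replaced by serine in the usual notation. Each group had n = 5 libraries, except n = 6 in both transgenic genotypes at 5 nM RGF1. The plt2 allele and the number of independent lines behind each transgene are not given in the labels, so a transgene cannot be told apart from other properties of its line.

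Xylem vessels form from provascular cells that deposit a thick secondary wall of cellulose, xylan and lignin, and then die and digest their contents. NAC and MYB transcription factors switch this programme on. A dedicated set of cellulose synthases makes the secondary wall cellulose, laccases polymerise the lignin, and cysteine proteases take part in the autolysis. In the root the programme runs mainly above the dividing zone.

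The libraries held 7739807 to 10332541 counts, of which 2652354 to 5116600 lay outside 14 organelle and ribosomal RNA loci, so low genes rest on few reads. Mitochondrial loci took 46.3% to 72.4% of the counts of a library. PLT2 transcript lay between 3.48 and 12.0 CPM (counts scaled to library size) in all plt2 libraries and between 26.7 and 87.4 CPM in all transgenic libraries. Under mock it was also higher in gPLT2C212S than in gPLT2 by a log2 difference of 0.69 ± 0.127 (SE, adjusted p = 0.00122). All 10 genes together collected 18 to 254 counts per library. That sum was 66 to 76 counts in plt2 under mock and 18 to 32 in plt2 at 5 nM. It was 54 to 89 counts in gPLT2 under mock and 78 to 160 at 5 nM, and 34 to 56 counts in gPLT2C212S under mock and 153 to 254 at 5 nM. In such bulk tissue, fewer cells of a type and less RNA per cell cannot be told apart.

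The promoters of XCP1, CESA4 and LAC4 are shown because XCP1 and CESA4 hold a known vessel element that was matched in no other member, and LAC4 had the largest ratio to its mock. Each sequence is the 250 bases before the annotated gene start, from RefSeq's TAIR10.1 genome, read 5′ to 3′ on the plus strand. Capitals mark matches to the tracheary element-regulating element (TERE), a motif known from promoters of genes of vessel formation, XCP1 among them. It was searched on both strands in 300-base windows that also held the first 50 transcribed bases.
XCP1, chr4:16810232-16810481: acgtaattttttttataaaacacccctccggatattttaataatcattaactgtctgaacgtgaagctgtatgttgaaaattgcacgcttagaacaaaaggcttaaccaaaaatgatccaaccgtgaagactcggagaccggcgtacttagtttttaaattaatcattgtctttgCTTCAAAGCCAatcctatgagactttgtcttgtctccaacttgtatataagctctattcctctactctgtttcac
CESA4, chr5:17714140-17714389: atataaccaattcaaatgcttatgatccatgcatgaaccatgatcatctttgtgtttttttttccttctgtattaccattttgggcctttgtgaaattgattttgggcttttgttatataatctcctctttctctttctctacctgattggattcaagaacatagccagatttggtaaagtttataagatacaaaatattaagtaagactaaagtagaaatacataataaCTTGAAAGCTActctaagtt
LAC4, chr2:15933994-15934243: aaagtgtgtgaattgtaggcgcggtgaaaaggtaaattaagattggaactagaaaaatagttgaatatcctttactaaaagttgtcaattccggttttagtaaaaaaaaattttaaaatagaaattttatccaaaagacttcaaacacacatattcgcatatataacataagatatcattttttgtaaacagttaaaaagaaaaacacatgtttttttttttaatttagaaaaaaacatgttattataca
TERE matched in the windows of 2 of the 10 members. The match in XCP1, CTTCAAAGCCA, began 75 bases before the gene start, and that in CESA4, CTTGAAAGCTA, began 20 bases before it. Among 27443 protein-coding promoters, 123 or 0.448% held TERE. It matched in no other member's window, which says only that these letters are not there. Only TERE is reported for these windows, so other known elements may be present in them.

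Levels of different genes were compared per length, as the authors' FPKM. Averaged over the 9 group means, XCP1 stood at 5.42 FPKM and XCP2 at 4.83. LAC4 followed at 1.56, CESA7 at 1.08 and CESA4 at 0.781 FPKM. The regulators MYB46 and VND7 had 0.684 and 0.473 FPKM, and CESA8, COBL4 and MYB83 had 0.361, 0.199 and 0.189. The protease genes thus led the list, and MYB83 and COBL4 had the lowest of these averages. The order differed between groups: under mock LAC4 had 0.0261, 0.0281 and 0.168 FPKM in plt2, gPLT2 and gPLT2C212S, below VND7 at 0.607, 0.565 and 0.416, and XCP2 at 5.58 lay above XCP1 at 2.84 in plt2. All other levels below are CPM, which compare 1 gene between groups.

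**Figure D1:**
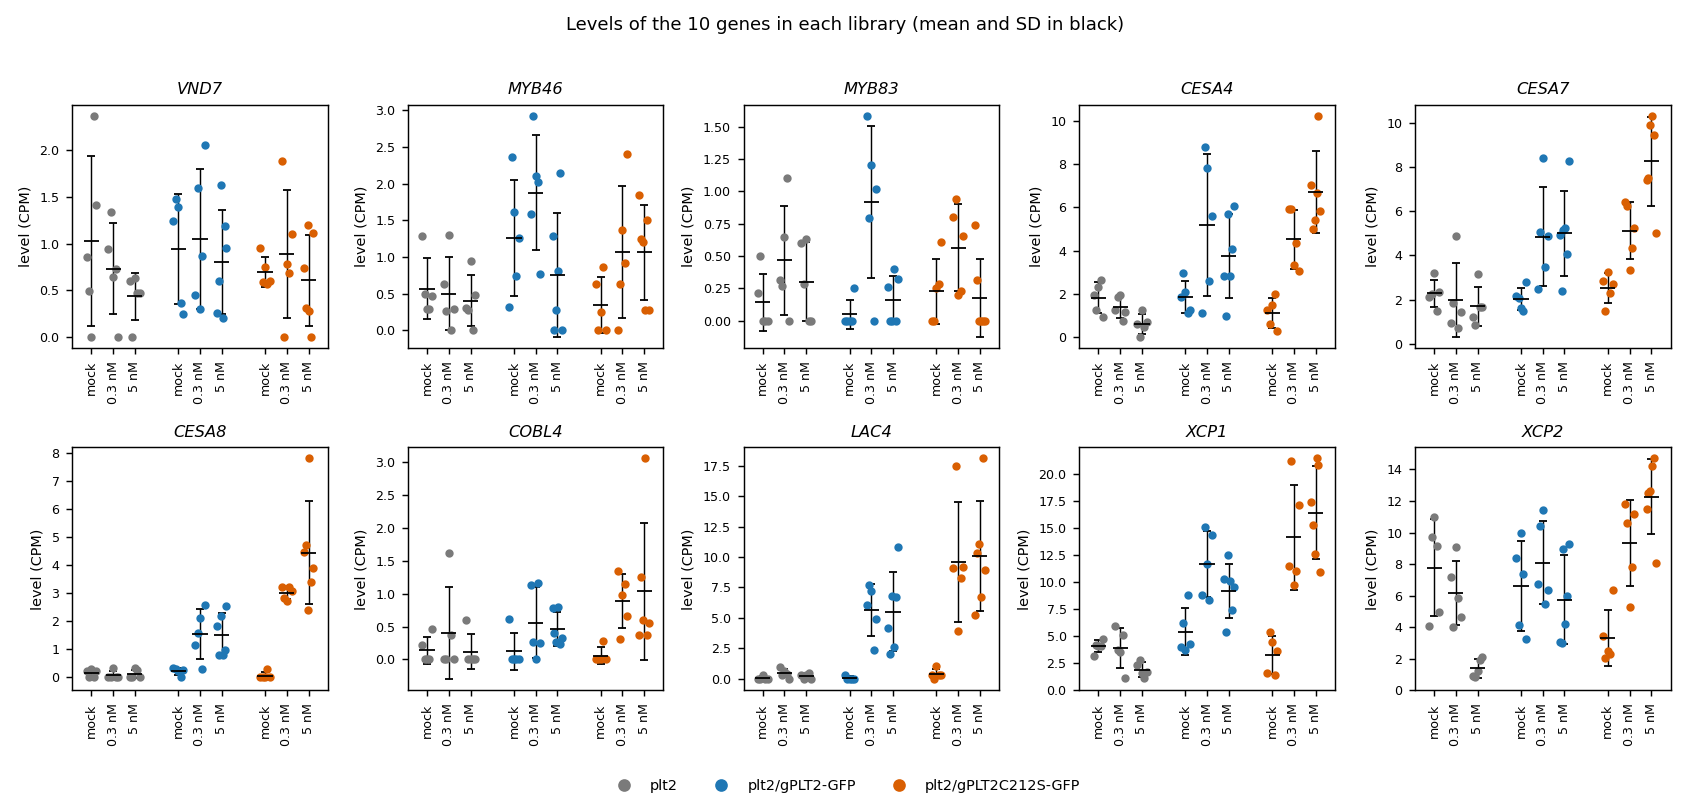
Levels of the 10 genes in every library, in CPM, with 1 panel per gene and the 9 groups along each x axis. Points are libraries, black bars are group means and whiskers are SDs. LAC4 and CESA8 lay near 0 in all mock groups and in all plt2 groups, while XCP2 fell to between 0.845 and 2.13 CPM in plt2 at 5 nM.

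Of the regulators, VND7 is a NAC master switch of vessel formation, and MYB46 and MYB83 are redundant switches acting below it. None of the 3 had enough counts to enter a test after the filter on low counts. VND7 had 8 to 20 counts summed over a group, and its group means lay between 0.436 and 1.05 CPM. Its libraries overlapped between every dose and its mock in all 3 genotypes. MYB46 had 6 counts in gPLT2C212S under mock, 24 at 0.3 nM and 19 at 5 nM. The ratio to mock, from the summed counts, was 3.31 at 0.3 nM (exact 95% interval 1.32 to 9.89) and 2.88 at 5 nM (1.11 to 8.81). Such intervals cover counting error only, not the spread between replicates, and the libraries overlapped. In gPLT2 the MYB46 counts were 23 under mock, 35 at 0.3 nM and 19 at 5 nM, and its ratio to mock at 5 nM was 0.583 (0.3 to 1.12). MYB83 had 1 count in gPLT2 under mock, 18 at 0.3 nM and 4 at 5 nM. Its ratio to mock at 0.3 nM was 16.7 with an interval from 2.64 to 697. When all genes were fitted without the filter, MYB83 was called higher there (log2 difference 3.42 ± 1.15, adjusted p = 0.0373), and neither VND7 nor MYB46 was called at either dose in any genotype. Their adjusted p in those fits lay between 0.19 and 0.967.

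LAC4, a laccase that polymerises lignin, went from almost no reads to a clear signal in both transgenic genotypes at both doses. Its counts in plt2 were 0, 0, 1, 0 and 0 under mock, 3, 1, 2, 1 and 0 at 0.3 nM, and 1, 0, 1, 2 and 0 at 5 nM. In gPLT2 they were 1, 0, 0, 0 and 0 under mock, 27, 29, 24, 8 and 19 at 0.3 nM, and 16, 10, 25, 13, 28 and 34 at 5 nM. In gPLT2C212S they were 1, 0, 4, 1 and 1 under mock, 34, 56, 20, 36 and 42 at 0.3 nM, and 14, 33, 37, 24, 48 and 32 at 5 nM. Every transgenic library with RGF1 thus lay above every mock library and above every plt2 library. In CPM, the level in gPLT2 was 5.63 ± 2.15 (SD, n = 5) at 0.3 nM and 5.51 ± 3.29 (n = 6) at 5 nM, against 0.0622 ± 0.139 under mock. In gPLT2C212S it was 9.59 ± 4.92 and 10.1 ± 4.54, against 0.38 ± 0.368 under mock. The ratio to mock was 99.4 (interval 17.5 to 3960) and 89.0 (15.7 to 3540) in gPLT2, where mock held a single read, and 22.2 (10.6 to 56.0) and 24.4 (11.6 to 61.6) in gPLT2C212S. The change passed the test in gPLT2 at 5 nM (adjusted p = 6.19e-06) and in gPLT2C212S at 0.3 nM (3.03e-06) and 5 nM (3.67e-08). In gPLT2 at 0.3 nM LAC4 missed the filter, and the fit without it gave an adjusted p of 1.21e-14. In plt2 at 0.3 nM it had 7 counts against 1 under mock, a ratio of 8.57 (1.10 to 386), and at 5 nM 4 counts against 1.

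CESA4, CESA7 and CESA8 are the subunits of the cellulose synthase of secondary walls. CESA8 had counts of 1, 0, 1, 0 and 1 in plt2 under mock, 0, 0, 1, 0 and 0 at 0.3 nM, and 0, 0, 1, 1 and 0 at 5 nM. In gPLT2 the counts were 1, 1, 1, 0 and 1 under mock, 5, 6, 7, 1 and 10 at 0.3 nM, and 4 to 8 at 5 nM. In gPLT2C212S they were 0, 0, 0, 1 and 0 under mock, 12, 9, 14, 14 and 14 at 0.3 nM, and 8 to 28 at 5 nM. The last genotype at either dose did not overlap its mock or any plt2 library, while gPLT2 at 0.3 nM had 1 library at the level of its mock. The ratio to mock was 6.73 (interval 2.36 to 26.4) at 0.3 nM and 6.18 (2.21 to 23.9) at 5 nM in gPLT2. In gPLT2C212S it was 52.1 (9.01 to 2090) and 78.2 (13.7 to 3130). CESA8 missed the filter in all 4 of these comparisons, and the fits without it called it higher in each, with adjusted p of 0.0251 and 0.00661 in gPLT2 and of 7.36e-08 and 1.98e-12 in gPLT2C212S.

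CESA4 stood at 1.93, 1.24, 2.32, 2.65 and 0.941 CPM in plt2 under mock and at 0.598, 0, 1.26, 0.478 and 0.711 CPM at 5 nM. These values overlapped, and the ratio of summed counts was 0.337 (0.154 to 0.678). CESA4 missed the filter there, and the fit without it did not call the difference (adjusted p = 0.185). In gPLT2C212S it stood at 1.26, 0.595, 1.49, 2.00 and 0.303 CPM under mock, at 5.90, 5.93, 3.32, 4.36 and 3.07 CPM at 0.3 nM, and at 5.00, 6.26 and 10.2 CPM (lowest, median and highest) at 5 nM. All libraries with RGF1 lay above all mock libraries, and CESA4 rose by a log2 difference of 1.90 ± 0.403 (adjusted p = 0.00162) and 2.46 ± 0.365 (6.74e-06). In gPLT2 it went from 1.86 ± 0.742 CPM (SD, n = 5) under mock to 5.18 ± 3.27 and 3.74 ± 1.92 CPM, with overlap at both doses. That difference at 5 nM, 0.90 ± 0.415, did not pass (adjusted p = 0.0799), but passed with total-count scaling (0.044), with the mitochondrial share as a covariate (0.0399) and without dose replicate 2 (0.0146). At 0.3 nM CESA4 missed the filter and was called without it (1.43 ± 0.395, adjusted p = 0.0062).

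CESA7 rose in both transgenic genotypes at both doses. In gPLT2 it stood at 2.18, 2.08, 1.62, 1.47 and 2.78 CPM under mock and at 2.48, 5.04, 8.39, 3.47 and 4.86 CPM at 0.3 nM. It stood at 2.38, 5.03 and 8.29 CPM (lowest, median and highest) at 5 nM, and at each dose the lowest library overlapped the mock. The log2 difference was 1.21 ± 0.366 (adjusted p = 0.0265) at 0.3 nM and 1.21 ± 0.332 (0.00499) at 5 nM. In gPLT2C212S, CESA7 stood at 2.52 ± 0.668 CPM (SD, n = 5) under mock, 5.12 ± 1.31 at 0.3 nM and 8.26 ± 2.01 at 5 nM, without overlap between dose and mock. The differences there were 0.97 ± 0.308 (adjusted p = 0.0269) and 1.66 ± 0.284 (4.38e-05). With 1 library left out, the log2 difference at 0.3 nM stayed at 0.925 to 1.40 in gPLT2 and 0.824 to 1.11 in gPLT2C212S. Both calls at 0.3 nM were still lost when any 1 of several libraries was left out. The one in gPLT2 was lost without mock replicate 1, 2 or 4 or dose replicate 2 or 3, and the one in gPLT2C212S without mock replicate 2 or 4 or dose replicate 1, 2 or 5, with adjusted p of up to 0.0968 and 0.0778. In plt2, CESA7 stood at 2.28 ± 0.615, 1.98 ± 1.68 and 1.71 ± 0.880 CPM in the order mock, 0.3 nM and 5 nM.

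COBL4, a COBRA-like protein needed for secondary wall cellulose, was the rarest wall gene. In gPLT2C212S it had 1 count summed over the mock libraries, 19 at 0.3 nM and 21 at 5 nM, without overlap at either dose. The ratios were 15.7 (2.50 to 652) and 19.1 (3.07 to 790), and the fits without the filter called both (adjusted p = 0.0206 and 0.00384). At 5 nM, 11 of the 21 counts came from 1 library. In gPLT2 the sums were 2 counts under mock, 11 at 0.3 nM and 12 at 5 nM, with overlap, and neither difference was called without the filter (adjusted p = 0.313 and 0.216).

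XCP1 and XCP2 are papain-like cysteine proteases that digest the contents of dying vessels. They were the members that passed the filter in all comparisons, and the ones that fell in plt2. In plt2, XCP2 stood at 4.07, 9.69, 11.0, 9.14 and 4.94 CPM under mock, at 7.21, 4.02, 9.09, 5.87 and 4.66 CPM at 0.3 nM, and at 0.898, 0.845, 1.26, 1.91 and 2.13 CPM at 5 nM. The 5 nM libraries lay below all the others, and XCP2 fell by 2.36 ± 0.374 on the log2 scale (adjusted p = 0.000698). In gPLT2 it did not pass the test at either dose, at 6.63 ± 2.83 CPM (SD, n = 5) under mock, 8.07 ± 2.62 at 0.3 nM and 5.74 ± 2.81 at 5 nM, with log2 differences of 0.27 ± 0.295 and -0.28 ± 0.338. In gPLT2C212S it stood at 3.48, 2.08, 2.49, 2.29 and 6.36 CPM under mock, at 11.8, 10.6, 5.27, 7.80 and 11.2 CPM at 0.3 nM, and at 8.08, 12.6 and 14.7 CPM (lowest, median and highest) at 5 nM. The mock libraries overlapped those at 0.3 nM but not those at 5 nM. XCP2 rose by 1.45 ± 0.315 (adjusted p = 0.00197) and 1.85 ± 0.271 (5.94e-06).

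XCP1 in plt2 stood at 3.21, 4.22, 4.07, 4.13 and 4.71 CPM under mock, at 5.96, 3.75, 3.57, 5.13 and 1.17 CPM at 0.3 nM, and at 2.39, 2.82, 1.58, 1.19 and 1.66 CPM at 5 nM. The 5 nM libraries lay below the mock libraries, and XCP1 fell by 1.05 ± 0.310 on the log2 scale (adjusted p = 0.0408). That call was lost without any 1 of mock replicates 2 to 5 or 5 nM replicates 3 to 5, where the log2 difference stayed between -1.22 and -0.93, and also without the filter (adjusted p = 0.117) and with all 9 groups in 1 fit (0.0513). In gPLT2, XCP1 went from 4.04, 6.23, 3.71, 8.84 and 4.30 CPM under mock to 8.78, 15.1, 11.7, 8.38 and 14.3 CPM at 0.3 nM, and to 5.36, 9.81 and 12.5 CPM (lowest, median and highest) at 5 nM. The mock libraries overlapped those of both doses, and XCP1 rose by 1.13 ± 0.266 (adjusted p = 0.00506) and 0.75 ± 0.266 (0.0255). The call at 5 nM was lost without mock replicate 1, 3 or 5 or dose replicate 1 or 3 (adjusted p of up to 0.0685). In gPLT2C212S it went from 3.30 ± 1.74 CPM (SD, n = 5) to 14.1 ± 4.87 and 16.4 ± 4.28, without overlap, and rose by 2.04 ± 0.311 (adjusted p = 5.94e-05) and 2.25 ± 0.277 (4.61e-07).

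Counted over the list, RGF1 at 0.3 nM called none of the members in plt2, where only XCP1 and XCP2 were tested (adjusted p = 0.991 and 0.883). Over all 15880 genes tested there by edgeR 0.0504% were called, and 1151 genes had an unadjusted p under 0.05, neither member among them. DESeq2 also called 0 members. At 5 nM in plt2 the same 2 members were tested and both were lower, beside 6.62% of all genes called lower. In gPLT2, 2 of 3 tested members were higher at 0.3 nM (all genes 6.14%), and 3 of 5 at 5 nM (all genes 23.2%). In gPLT2C212S, 5 of 5 tested members were higher at 0.3 nM (all genes 11.9%) and 5 of 5 at 5 nM (all genes 18.7%). CESA4, CESA7 and LAC4 entered some of these fits through the groups in which they were high, so these counts describe the members that passed and not all 10. The median log2 difference of the tested members was 0.90 in gPLT2 and 2.25 in gPLT2C212S at 5 nM, beside 0.029 and -0.00111 for all genes. The median of the 2 tested members of plt2 was -1.70, beside 0.0175.

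**Figure D2:**
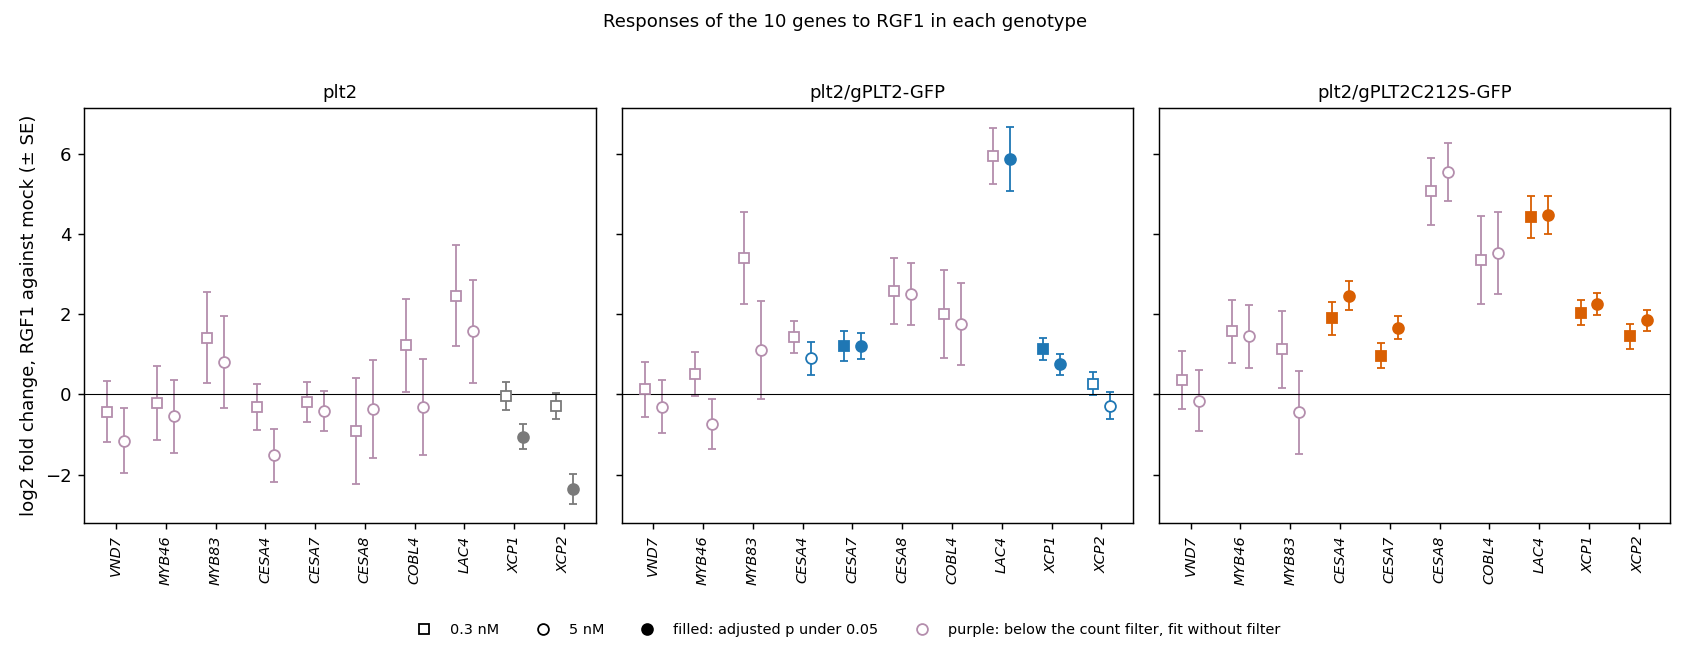
Log2 fold changes between RGF1 and mock for the 10 genes in each genotype, with SEs; squares are 0.3 nM and circles 5 nM. Filled symbols passed an adjusted p of 0.05, open symbols did not, and purple symbols, always open, come from the fit without the filter on low counts. XCP2 lies at -2.36 in plt2 and at 1.85 in gPLT2C212S at 5 nM.

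The genotypes were then compared in the size of the response, by the interaction of genotype and dose in 1 fit over all 4 groups. At 5 nM the response of gPLT2 exceeded that of plt2 for 4 of 5 tested members (all genes called higher 3.42%). The difference was 2.43 ± 0.716 for CESA4, 1.64 ± 0.509 for CESA7, 1.81 ± 0.413 for XCP1 and 2.09 ± 0.554 for XCP2 (adjusted p = 0.0295, 0.0397, 0.0051 and 0.0151). For XCP2 that difference came with a fall in plt2 and no called change in gPLT2. The CESA4 difference was lost without plt2 mock replicate 4 or plt2 5 nM replicate 2 (adjusted p of up to 0.0574). The CESA7 difference was lost without any 1 of 15 of the 21 libraries and without the filter, with adjusted p of up to 0.0798. The response of gPLT2C212S exceeded that of plt2 for the same 4 of 5 tested members (all genes 6.41%), by 4.01 ± 0.650, 2.11 ± 0.466, 3.35 ± 0.437 and 4.24 ± 0.467 (adjusted p = 7.21e-05, 0.00243, 3.15e-06 and 2.01e-07). Both comparisons share the plt2 libraries. CESA4, CESA7 and LAC4 missed the filter in plt2 alone at 5 nM against mock. They entered these fits through the transgenic groups, so these counts describe only the members that passed. Between the transgenic genotypes, the response of gPLT2C212S at 5 nM was larger for XCP2 by 2.14 ± 0.459 (adjusted p = 0.00471) and for XCP1 by 1.51 ± 0.412 (0.0282). These were 2 of 5 tested members, beside 3.26% of all genes called higher. The XCP1 difference was lost with total-count scaling (adjusted p = 0.116) and without gPLT2 mock replicate 2 or 4, gPLT2C212S mock replicate 4 or gPLT2C212S 5 nM replicate 4.

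At 0.3 nM, gPLT2C212S exceeded plt2 in the response of 3 of 5 tested members (all genes 4.84%). These were CESA4 by 2.19 ± 0.595, XCP1 by 2.07 ± 0.492 and XCP2 by 1.73 ± 0.471 (adjusted p = 0.0171, 0.00731 and 0.0175). CESA4, CESA7 and LAC4 missed the filter in plt2 alone at 0.3 nM against mock too, so this count describes only the members that passed. No member was called for gPLT2 against plt2 (0 of 3 tested, 5.99% of all genes called in either direction) or for gPLT2C212S against gPLT2 (0 of 6 tested, 1.99%). The XCP1 difference was 1.17 ± 0.445 in the former (adjusted p = 0.109) and 0.91 ± 0.438 in the latter (0.311). In these fits by edgeR, 3711 and 2619 genes had an unadjusted p under 0.05, XCP1 among both, and DESeq2 also called 0 members. LAC4 missed the filter in the interaction of gPLT2 and plt2 at 0.3 nM. Its mock groups held 1, 1 and 7 reads, and its tested interactions at both doses had SEs from 1.20 to 2.87. None was called, so a difference in the fold of LAC4 could not be resolved at this depth.

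Under mock, only 2 of the 10 members, XCP1 and XCP2, passed the filter in the comparisons of genotypes, and 1 call was made. The other members were too low to test there. XCP2 was lower in gPLT2C212S (3.34 ± 1.77 CPM) than in plt2 (7.77 ± 3.08 CPM), by 1.20 ± 0.365 on the log2 scale (adjusted p = 0.0296, all genes called lower 11.8%). That call was lost without any 1 of plt2 replicates 2 to 4 or gPLT2C212S replicates 2 to 4 (adjusted p of up to 0.0787). No tested member was called between gPLT2 and plt2 (all genes in either direction 2.54%) or between gPLT2C212S and gPLT2 (8.77%). In edgeR's fits 2726 and 3772 genes had an unadjusted p under 0.05, XCP2 among the latter (adjusted p = 0.0933), and DESeq2 also called 0 members. XCP1 differed by 0.41 ± 0.294 between gPLT2 and plt2 (adjusted p = 0.51) and by -0.66 ± 0.361 between gPLT2C212S and gPLT2 (0.271).

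At 5 nM, gPLT2 lay above plt2 in 5 of 5 tested members (all genes called higher 17.8%) and gPLT2C212S above plt2 in 5 of 5 (all genes 21.8%). CESA4, CESA7 and LAC4, with 11, 31 and 4 counts in plt2 there, passed the filter through the transgenic groups, so these counts too describe only the members that passed. The log2 differences of gPLT2C212S were 3.38 ± 0.412 for CESA4, 3.07 ± 0.270 for XCP1 and 3.03 ± 0.285 for XCP2. LAC4 had 188 counts against 4, a ratio of 45.5 (17.5 to 169). At 0.3 nM, gPLT2 was above plt2 for XCP1 and CESA7 (2 of 3 tested, all genes 14.3%), and gPLT2C212S was above plt2 for CESA4, CESA7, XCP1 and LAC4 (4 of 5, all genes 22.2%). CESA4, CESA7 and LAC4 had 23, 32 and 7 counts in plt2 at 0.3 nM. Where tested, they passed the filter through the transgenic groups, so the counts at 0.3 nM also describe only the members that passed. The CESA7 difference between gPLT2 and plt2 was lost without any 1 of 7 of the 10 libraries (adjusted p of up to 0.111).

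Between both transgenic genotypes at 5 nM, gPLT2C212S was higher in XCP1, 16.4 ± 4.28 CPM (SD, n = 6) against 9.20 ± 2.48 CPM (n = 6), and in XCP2, 12.3 ± 2.37 against 5.74 ± 2.81 CPM. The log2 differences were 0.87 ± 0.204 (adjusted p = 0.0148) and 1.16 ± 0.258 (0.0102), beside 2.2% of all genes called higher, and the libraries overlapped for both genes. Mitochondrial loci took 61.6% to 72.4% of the counts in gPLT2C212S and 49.5% to 69.1% in gPLT2. With that share as a covariate neither call held, with adjusted p of 0.105 for XCP1 and 0.121 for XCP2, and total-count scaling ended that of XCP1 (0.0773). LAC4 (ratio 1.95, interval 1.55 to 2.46) was tested and not called (log2 difference 0.95 ± 0.336, adjusted p = 0.115), but was called in the fit without the filter (0.00536). CESA8 (ratio 3.21, interval 2.14 to 4.90) missed the filter and was called without it (adjusted p = 0.00214). At 0.3 nM no member was called between these genotypes (7.39% of all genes in either direction). There LAC4 differed by 0.71 ± 0.332, CESA8 by 0.94 ± 0.391 and XCP1 by 0.25 ± 0.229 (adjusted p = 0.207, 0.153 and 0.575). In that edgeR fit 3517 genes, LAC4 and CESA8 included, had an unadjusted p under 0.05, and DESeq2 also called 0 members.

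Among other genes of the xylem programme, a list of 65 was examined, of which 28 to 36 passed the filter in a fit. At 5 nM, 0 of 29 tested were higher and 2 lower in plt2, 2 of 29 higher and 11 lower in gPLT2, and 4 of 30 higher and 7 lower in gPLT2C212S. Of all genes, 9.44%, 47.5% and 40.2% were called there in either direction. The median log2 difference of the tested genes was -0.106, -0.372 and -0.0917 in that order. At 0.3 nM the counts were 0 and 0 of 31 in plt2, 3 higher and 2 lower of 31 in gPLT2, and 2 higher and 7 lower of 32 in gPLT2C212S, beside 0.0504%, 15.2% and 22.9% of all genes called in either direction.

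Besides LAC4, the laccases LAC11 and LAC17 are known to polymerise lignin. In gPLT2C212S, LAC17 had 2 counts under mock, 69 at 0.3 nM and 128 at 5 nM, a ratio at 5 nM of 58.2 (15.8 to 486), and it rose (adjusted p = 2.39e-08). In gPLT2 it had 1 count under mock, 31 at 0.3 nM and 56 at 5 nM, and in plt2 it had 3, 2 and 0 counts. At 5 nM LAC17 was at least 41.3-fold higher in gPLT2C212S and at least 13.8-fold higher in gPLT2 than in plt2, taking 3 counts over the plt2 group as the floor. LAC11 rose from 6.55 ± 1.26 CPM (SD, n = 5) to 18.6 ± 5.28 (n = 6) in gPLT2C212S at 5 nM (log2 difference 1.45 ± 0.216, adjusted p = 7.32e-06). It also rose in gPLT2 at 0.3 nM (1.47 ± 0.262, adjusted p = 0.000438), but was not called there at 5 nM (0.60 ± 0.284, adjusted p = 0.0871), and in plt2 it stood at 6.60 ± 4.27 CPM under mock and 5.38 ± 1.80 at 5 nM. In the interaction with plt2 at 5 nM, the response of gPLT2C212S was larger for LAC17 and LAC11 (adjusted p = 0.00459 and 0.00814). At 5 nM LAC17 and LAC11 were also higher in gPLT2C212S than in gPLT2, by 1.56 ± 0.350 and 0.95 ± 0.208 (adjusted p = 0.0112 and 0.00949). They were the 2 of 29 tested list genes called in that comparison, beside 2.2% of all genes called higher.

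Among the transcription factors, MYB43, a wall MYB, rose in gPLT2C212S by 2.30 ± 0.388 at 0.3 nM and 1.59 ± 0.387 at 5 nM (adjusted p = 0.000182 and 0.0019). In plt2 it had 45 counts under mock and 8 at 5 nM, a ratio of 0.19 (0.0775 to 0.408). The response of MYB43 at 5 nM was larger than in plt2 by 2.71 ± 0.695 in gPLT2 and by 3.89 ± 0.726 in gPLT2C212S (adjusted p = 0.012 and 0.000397). VNI2, a NAC protein that represses VND7, fell by 1.03 ± 0.249 in plt2 and by 1.05 ± 0.241 in gPLT2 at 5 nM (adjusted p = 0.0145 and 0.00134). SND3, another wall NAC, was lower in gPLT2 than in plt2 at 5 nM, at 1.82 ± 0.72 against 3.57 ± 1.54 CPM (adjusted p = 0.0261).

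The xylan genes build the other main polysaccharide of the wall. In plt2, gPLT2 and gPLT2C212S at 5 nM, 0, 1 and 0 of 5 tested genes were higher and 1, 3 and 2 lower, beside 9.44%, 47.5% and 40.2% of all genes called in either direction. IRX10, a xylan synthase, was the one that rose, from 7.87 ± 1.29 to 14.3 ± 2.32 CPM in gPLT2 (log2 difference 0.83 ± 0.176, adjusted p = 0.000614). GXMT1, which methylates xylan side chains, fell in all 3 genotypes, by 0.90 ± 0.113 in plt2, 1.22 ± 0.111 in gPLT2 and 1.07 ± 0.140 in gPLT2C212S (adjusted p = 9.04e-05, 3.94e-08 and 1.27e-06).

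Of 4 other autolysis genes, 0 were higher and 3 lower in gPLT2 at 5 nM, and 1 was higher and 2 lower in gPLT2C212S (all genes in either direction 47.5% and 40.2%). RNS3, a ribonuclease, fell in gPLT2 from 172 ± 61.1 CPM (SD, n = 5) to 52.8 ± 20.6 (n = 6) at 5 nM (log2 difference -1.75 ± 0.243, adjusted p = 7.78e-06). By the interaction, the log2 response of RNS3 in gPLT2 less that in plt2 was -1.50 ± 0.458 (adjusted p = 0.0361), a deeper fall in gPLT2. In plt2 RNS3 stood at 224 ± 125 CPM under mock and 187 ± 48.2 at 5 nM. In gPLT2C212S it fell from 94.3 ± 21.4 to 40.3 ± 11.4 CPM (-1.27 ± 0.165, adjusted p = 1.07e-06). BFN1, a nuclease of dying cells, fell by 1.62 ± 0.314 and 0.92 ± 0.336 in the same order (adjusted p = 0.000283 and 0.0306), while XSP1, a xylem serine protease, rose in gPLT2C212S by 0.76 ± 0.178 (0.00135). RNS3 and BFN1 are also known from the dying root cap. The summed level of 3 root cap markers ran from 169 to 310 CPM per library under mock and from 46.3 to 112 CPM at 5 nM in gPLT2. It ran from 195 to 223 CPM under mock and from 58.5 to 126 CPM at 5 nM in gPLT2C212S. The part of the root cap in this result was not tested.

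Of the genes that lay out vascular cells, 0 of 13 were called in plt2 at 5 nM (all genes in either direction 9.44%). Of 12 tested, 1 was higher and 3 lower in gPLT2 (all genes 47.5%), and 0 were higher and 3 lower in gPLT2C212S (all genes 40.2%). ACL5, a thermospermine synthase that restrains early vessel death, fell by 0.85 ± 0.180 in gPLT2 and 1.24 ± 0.168 in gPLT2C212S (adjusted p = 0.000628 and 1.90e-06). LOG3, a cytokinin-activating enzyme, fell by 1.70 ± 0.393 and 1.03 ± 0.357 (adjusted p = 0.00136 and 0.0238), and TMO5, a bHLH factor of early vascular cells, fell in gPLT2C212S by 0.84 ± 0.188 (0.000896). The responses of TMO5 and ACL5 in gPLT2C212S were lower than in plt2 by 1.40 ± 0.309 and 1.09 ± 0.227 (adjusted p = 0.0024 and 0.00138). PHV, a class III homeodomain factor of vascular patterning, had a response lower by 1.06 ± 0.326 in gPLT2 than in plt2 (adjusted p = 0.0365), and its relative PHB was higher in gPLT2 than in plt2 at 5 nM by 0.40 ± 0.154 (0.0435). LHW, the partner of TMO5, was called higher in gPLT2 (0.63 ± 0.251, adjusted p = 0.044) with a wide spread, 78.5 ± 49.2 CPM against 49.0 ± 3.66 under mock.

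**Figure D3:**
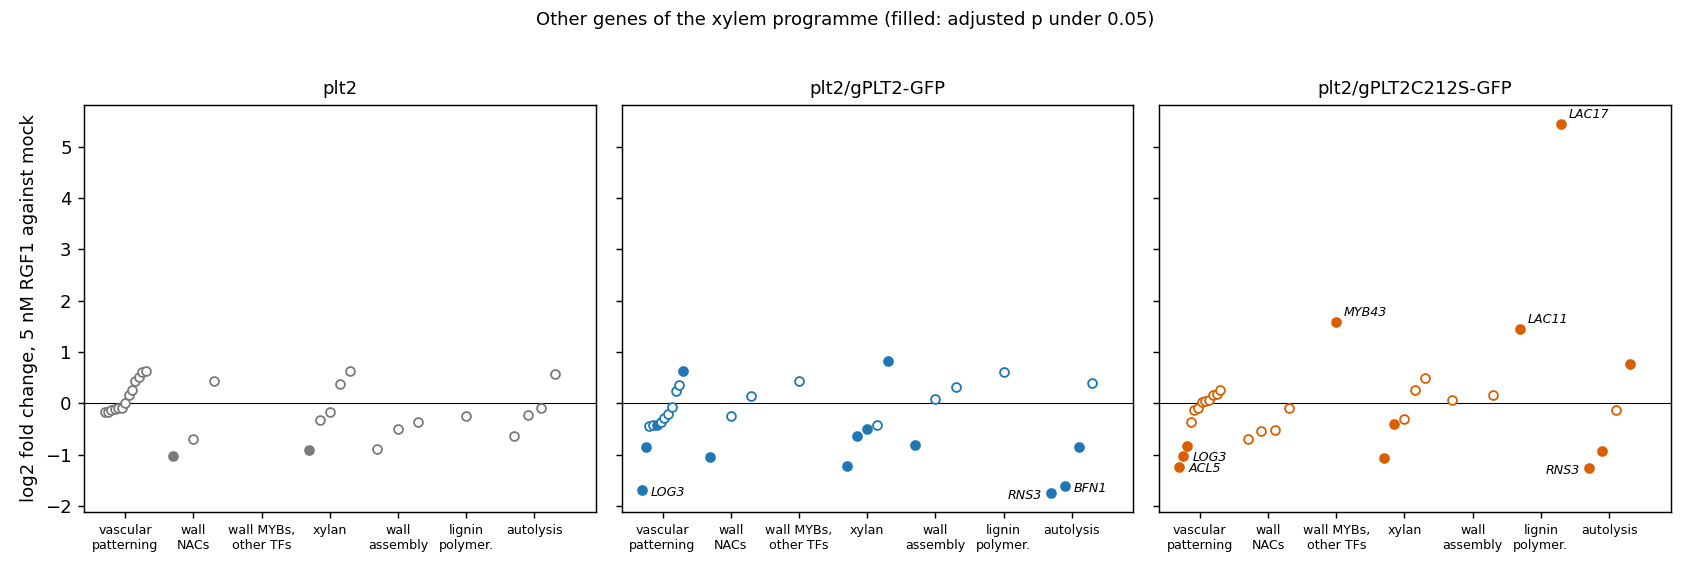
Log2 fold changes between 5 nM RGF1 and mock for the tested genes of the 65-gene xylem list, by role and genotype. Filled points passed an adjusted p of 0.05, and some of these are named. LAC17 stands highest, at 5.45 in gPLT2C212S, a fitted value that rests on 2 counts under mock, and RNS3 lies at -1.75 in gPLT2 and -1.27 in gPLT2C212S.

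Marker lists of other tissues were followed in the same libraries. The cellulose synthase genes of the primary wall and their partners, 8 genes, had a sum per library of 1110 to 1340 CPM in gPLT2C212S under mock and 931 to 1060 CPM at 5 nM, and 1530 to 1970 and 1000 to 1130 CPM in gPLT2. At 5 nM, 8 of the 8 fell in gPLT2, with a median log2 difference of -0.653 (all genes in either direction 47.5%). In plt2 and in gPLT2C212S 5 of 8 fell, with medians of -0.394 and -0.354 (all genes 9.44% and 40.2%). In plt2 their sum was 1730 to 2430 CPM under mock and 1450 to 1720 CPM at 5 nM. The sum of 5 root hair markers was 16.4 to 28.3 CPM in gPLT2C212S under mock and 7.41 to 15.9 CPM at 5 nM, and 19.6 to 29.9 against 10.7 to 16.5 CPM in gPLT2. It was 24.3 to 50.1 against 11.0 to 25.7 CPM in plt2, with lower medians at 5 nM in all 3 genotypes.

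The sum of 6 endodermis markers in gPLT2C212S was 2.85 to 7.58 CPM under mock, 11.0 to 19.7 CPM at 0.3 nM and 6.95 to 12.2 CPM at 5 nM, and 4 of the 6, all CASP genes, were at 0 in every mock library of that genotype. In gPLT2 it was 4.75 to 7.77 CPM under mock, 4.25 to 8.69 at 0.3 nM and 4.77 to 14.6 at 5 nM, and in plt2 4.97 to 7.37, 1.83 to 9.41 and 3.34 to 5.45 CPM. The 5 phloem markers summed to 13.3 to 23.7 CPM in gPLT2C212S under mock and 17.2 to 22.5 CPM at 5 nM, and to 14.4 to 21.7 and 11.1 to 24.9 CPM in gPLT2, overlapping in both. The 4 genes of dividing cells summed to 99.0 to 140 CPM under mock and 186 to 234 CPM at 5 nM in gPLT2C212S. They summed to 78.3 to 126 and 163 to 204 CPM in gPLT2, and to 94.4 to 134 and 103 to 140 CPM in plt2. How far a change in tissue makeup takes part in the levels of the xylem genes was not tested.

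**Figure D4:**
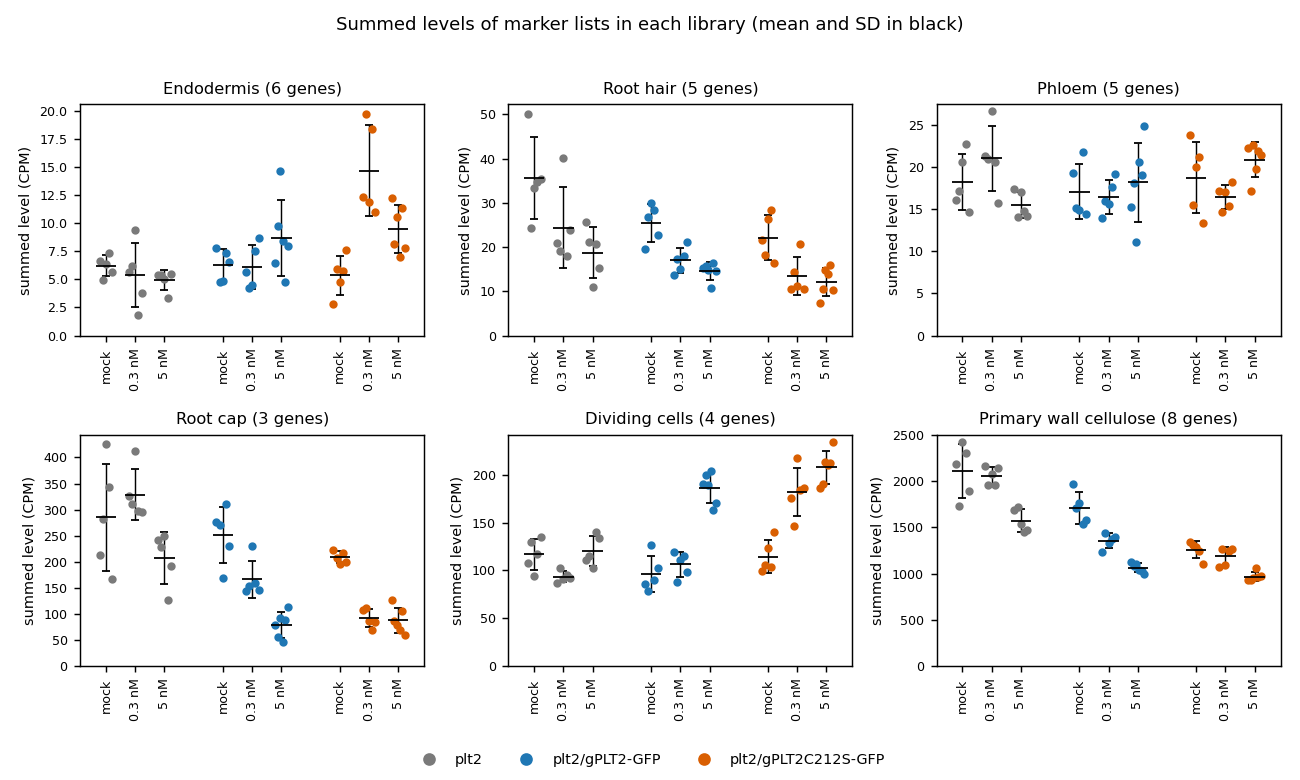
Summed levels, in CPM, of marker lists of other tissues and of primary wall cellulose genes in every library, with 1 panel per list and the 9 groups along each x axis. Points are libraries, black bars are means and whiskers are SDs. Endodermis markers reach 19.7 CPM in gPLT2C212S at 0.3 nM, while root cap and primary wall sums are lowest in the transgenic genotypes at 5 nM.

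The members were also compared in how their 9 group means ran together, with Pearson's r as a description over means that share libraries and scaling. The r between a member and the mean of the other 9 was 0.978 for XCP1 and 0.967 for CESA4. It lay between 0.783 and 0.890 for LAC4, COBL4, CESA8, CESA7 and XCP2. It was 0.702 for MYB46, 0.339 for MYB83 and 0.276 for VND7. Of 14368 genes outside the list with a mean of at least 5 CPM, GAD2, a glutamate decarboxylase, ran most like the member mean (r = 0.974), with group means from 6.96 CPM in plt2 at 5 nM to 20.5 CPM in gPLT2C212S at 5 nM. The next were LACS6, a peroxisomal acyl-CoA synthetase (0.968), AT2G31140 (0.959), AT1G48450 (0.954) and CP12-3 (0.952), all lowest in plt2 at 5 nM. Their highest groups differed. Their group means ran from 79.1 to 108, 52.8 to 79.3, 11.2 to 24 and 12.2 to 30.1 CPM in that order, as r does not measure the size of a change.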

How the data were processed

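RNA-seq libraries were prepared from dissected root meristematic zones. The authors deposited whole-number read counts per locus and an FPKM table of 25722 loci. Per the submitters' processing notes, HISAT2 2.1.0, featureCounts, Subread 2.0.3 and DESeq 1.34.0 were used on build TAIR10, with no role stated. Strand and the handling of shared reads are not given in the sources used here, so reads of overlapping, antisense or closely related genes could be mixed. The deposited FPKM values equal the counts divided by DESeq2 size factors and gene length, within a relative deviation of 1e-14 over 16449 loci. No column was left unmatched. Whether replicates came from separate batches of plants is not stated, so p-values measure the spread between libraries.

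Counts were tested in R 4.3.3 with edgeR 4.0.16 (quasi-likelihood F test, TMM scaling, filterByExpr minimum count 10, Benjamini-Hochberg adjustment over all genes tested, called under 0.05), with only the compared groups in a fit, in 15 pairs of groups and 6 interactions. SEs come from the fold change and F. Levels are CPM over TMM-adjusted library sizes without the 14 set-aside loci. Ratios for low genes use summed counts with exact conditional 95% intervals, and the floor was 3 counts, which a single library reached at 0.585 to 1.13 CPM. On simulated counts with a log2 change of 1, 155 of 200 genes were recovered with 4 false calls among 16053 for gPLT2 at 5 nM against mock, and 91 of 200 with 3 false calls among 16527 for the interaction of gPLT2 and plt2 at 5 nM. Alternatives included DESeq2 1.42.0.

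All 10 members are reported. Of the 65 pathway genes, those named at 5 nM are the called ones with the largest changes, up to 3 in each direction, and others named in the text were chosen after their values were seen. The members, lists and tests were chosen with earlier results of these data known. Of 108 list genes, 2 were left out because their names were not found in RefSeq.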

Additional observations from a re-analysis of the deposited data

Results flagged for a closer look

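Of 90 sets of levels (10 genes in 9 groups), 14 held a library far from the others of its group. The usual chance rate, about 1 in 20 sets, does not apply to levels of so few reads. There a lone library above 0 is always flagged. Only 2 of the 14 rested on more than 10 reads. These were CESA7 in plt2 at 0.3 nM, where replicate 3 had 4.87 CPM against 1.87 for the next, and COBL4 in gPLT2C212S at 5 nM, where replicate 4 had 3.06 CPM against 1.25. The others were single libraries with 0 to 6 reads. VND7 was at 0 CPM in 1 library of plt2 at 5 nM, MYB46 at 1.29 CPM in 1 of plt2 under mock and MYB83 at 0.253 CPM in 1 of gPLT2 under mock. CESA8 was at 0.325 CPM in 1 library of plt2 at 0.3 nM, at 0 CPM in 1 of gPLT2 under mock and at 0.286 CPM in 1 of gPLT2C212S under mock. COBL4 was at 1.62 CPM in 1 library of plt2 at 0.3 nM, at 0.598 CPM in 1 of plt2 at 5 nM, at 0.622 CPM in 1 of gPLT2 under mock and at 0.286 CPM in 1 of gPLT2C212S under mock. LAC4 was at 0.29 CPM in 1 library of plt2 under mock and at 0.311 CPM in 1 of gPLT2 under mock. Replicate 3 of plt2 at 0.3 nM stood apart in 3 genes: CESA7, CESA8 and COBL4.

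The response to RGF1 differed between genotypes, by the interaction test, in 13 cases. For gPLT2C212S less plt2 at 0.3 nM the log2 difference was 2.19 for CESA4, 2.07 for XCP1 and 1.73 for XCP2. For gPLT2 less plt2 at 5 nM it was 2.43 for CESA4, 1.64 for CESA7, 1.81 for XCP1 and 2.09 for XCP2. For gPLT2C212S less plt2 at 5 nM it was 4.01 for CESA4, 2.11 for CESA7, 3.35 for XCP1 and 4.24 for XCP2. For gPLT2C212S less gPLT2 at 5 nM it was 1.51 for XCP1 and 2.14 for XCP2. The comparisons with plt2 share its libraries.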

How the results depend on the processing

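No member reversed its direction in any setting where it was called. The number of members called moved by over 1.5 times in these settings. Without the filter on low counts it was 1 in plt2 at 5 nM (main value 2), 6 in gPLT2 at 0.3 nM (2), 1 for gPLT2C212S against gPLT2 under mock (0), 5 for gPLT2 against plt2 at 0.3 nM (2) and 4 for gPLT2C212S against gPLT2 at 5 nM (2). With all 9 groups in 1 fit it was 1 in plt2 at 5 nM, 5 in gPLT2 at 0.3 nM and 5 for gPLT2 against plt2 at 0.3 nM. Leaving out the 14 set-aside loci gave 1 in gPLT2 at 0.3 nM, where CESA7 was no longer tested. Total-count scaling gave 1 for gPLT2C212S against gPLT2 at 5 nM, 1 for the interaction of gPLT2 and plt2 at 0.3 nM (main value 0) and 1 for that of gPLT2C212S and gPLT2 at 5 nM (main value 2). That scaling moved the median of all genes by up to 0.517, in the interaction of gPLT2C212S and plt2 at 0.3 nM, and by -0.345 for gPLT2C212S against gPLT2 at 5 nM. With the mitochondrial share as a covariate, 0 members were called for gPLT2C212S against gPLT2 at 5 nM. The filter settings, and leaving out the 14 loci, change which genes are tested, and for the other settings the cause was not tested.

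Samples that share a replicate number did not deviate together in all pairs of any of the 15 comparisons (correlations from -0.45 to 0.339), and the main tests did not pair them. Failing that rule does not exclude a shared batch. For gPLT2 against plt2 at 0.3 nM, 3 of 5 pairs had a correlation over 0.1. The replicate block gave 1 member called in plt2 at 5 nM (2 without it), 0 for gPLT2C212S against plt2 under mock (1) and 1 for the interaction of gPLT2C212S and gPLT2 at 5 nM (2), and moved no other count of members by over 1.5 times.

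Leaving out 1 library at a time gave 1 to 2 members in plt2 at 5 nM, 1 to 3 in gPLT2 at 0.3 nM, 1 to 4 in gPLT2 at 5 nM, 0 to 1 for gPLT2C212S against plt2 under mock and 0 to 1 for gPLT2C212S against gPLT2 under mock. It gave 1 to 3 for gPLT2 against plt2 at 0.3 nM, 3 to 5 at 5 nM, and 2 to 5 for gPLT2C212S against gPLT2 at 5 nM. Among interactions at 0.3 nM it gave 0 to 1 for gPLT2 and plt2 and 3 to 5 for gPLT2C212S and plt2, and at 5 nM 2 to 4 for gPLT2 and plt2 and 1 to 2 for gPLT2C212S and gPLT2. In gPLT2 at 5 nM a count of 1 came without dose replicate 1 or 3, which also took LAC4 under the filter. Sums of 1 to 7 reads over a mock group limit the precision of the folds against mock for LAC4, CESA8, COBL4 and MYB83.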
